A study of Mus musculus with 36 samples.

Results

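The Ly6 genes described here are Ly6g, Ly6k, Ly6a2, Ly6e and Ly6d, measured in mouse CD4 T cells with and without TRIM28, a chromatin corepressor. They are 5 of 6 listed members of the Ly6 surface antigen family, and 5 of the 22180 genes that the array annotation names by a probe set of their own. The sixth, Ly6a, which encodes Sca-1, has no such probe set in the annotation and was not analysed here. The members were chosen by earlier results of these same arrays, read here as their differences between knockout and wild type. Those differences are therefore given as a description, without a test. Where they are said to pass or miss the threshold of the fit, this is part of the description. Comparisons among wild-type samples were tested. The differences that chose the members contain the wild-type values, so those comparisons are not independent of the choice. Their p-values may be too small, and are too small if the choice also drew on contrasts among wild-type samples.

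Naive CD4 T cells of TRIM28 knockout (KO) mice and their wild-type (WT) littermates were either kept naive or stimulated for 72 h through CD3, by an antibody bound to the plate, and through CD28, by an antibody in solution. The stimulated cells were cultured under Th0 (activation without lineage polarisation), Th1, Th2, Th17 or Treg conditions. Each of the 12 combinations of genotype and condition had 3 samples, 36 in all, each on 1 Affymetrix array. The labels give no cytokines, no age and no Cre driver, and do not tie the replicates to separate mice, so p-values measure only the spread between these samples. Values are log2 levels after RMA, a normalization and summary of the probe intensities, so a difference of 1 is a ratio of 2. The number of arrays limits the precision. The SE and p-values come from 1 fit, in which each gene has 1 spread shared by all 12 groups. Where a gene's samples lie further apart in the groups compared than elsewhere, both are too small. Levels of different genes were not compared, because each probe set has its own affinity.

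Ly6 proteins are small cell-surface proteins that fold into a compact, disulfide-rich domain and are held in the membrane by a lipid (GPI) anchor. Most mouse members lie in a gene cluster on chromosome 15, and in blood cells they are best known as markers that separate lineages and activation states. Ly6g is the neutrophil antigen recognised by antibodies against Gr-1. Ly6a2 lies beside the Ly6c genes, which mark memory and effector T cells and monocytes. Ly6e, also called TSA-1 or Sca-2, marks immature thymocytes and is induced by interferon. Ly6d, also called ThB, marks B-cell-committed lymphoid progenitors and stratified epithelium. Ly6k is known from the testis, where it takes part in sperm migration.

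The labels held in the target gene. Trim28 was between 9.21 and 9.99 in the 18 WT samples, from 7.20 to 7.86 in KO naive cells, and from 5.51 to 6.58 in KO cells after stimulation (15 samples). The cells carried CD4 T-cell markers throughout, with all 7 listed CD4 T-cell genes on the array above the table-wide median of 5.26 in all 36 samples. Samples numbered 1 of KO Th0 and of KO Th1 were known from earlier results to stand apart, and the KO values of Th0 and Th1 cells that rest on them are given with and without them. Shares over all tested genes are those of the fit with all samples. By their Xist level, 1 WT and 2 KO naive samples came from females and the other 33 from males. In these bulk samples fewer expressing cells and less RNA per cell cannot be told apart. All 5 members passed the filter on low values, a level above 5.26 in at least 3 samples. Ly6g was above it in 14 samples, all of them of Th1, Th2 or Th17 cultures. Ly6a2 was above it in 15 samples, 6 of them of Th1, and Ly6k, Ly6e and Ly6d were above that level in all 36.

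**Figure D1:**
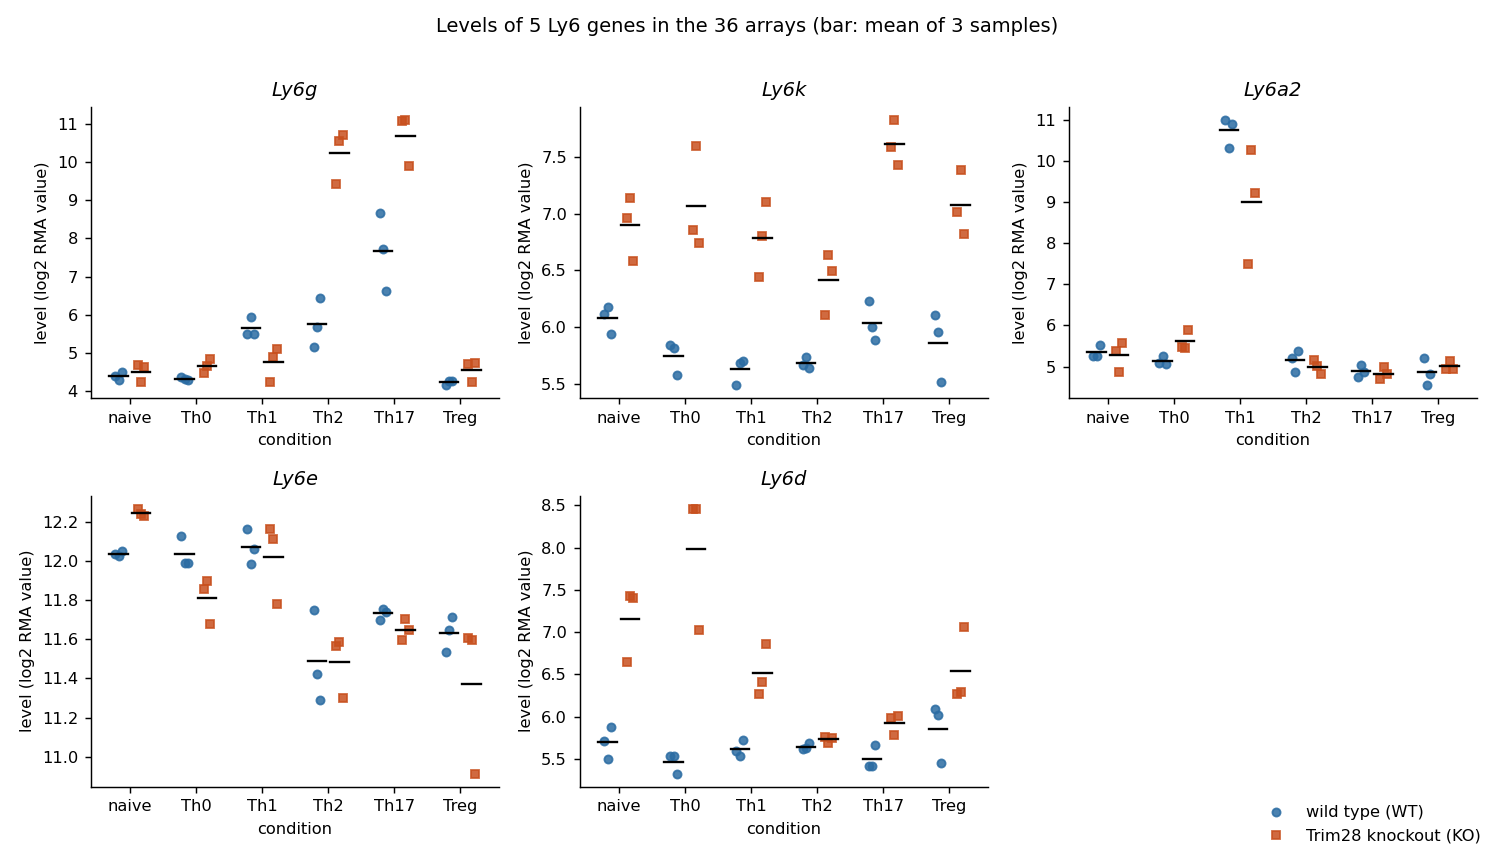
Log2 RMA level (y axis) of the 5 Ly6 genes in each of the 36 samples, by condition (x axis), with WT as blue circles, KO as orange squares and a bar at the mean of 3 samples; each panel has its own y axis. Ly6g stands at 9.41 or more in KO Th2 and KO Th17 samples only, Ly6a2 at 7.49 or more in Th1 samples only, and the KO samples of Ly6k lie above the WT samples in all 6 conditions.

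Ly6g, the neutrophil antigen, was low in naive, Th0 and Treg cells of both genotypes and rose in WT Th17 cells, and its highest levels were in KO Th2 and KO Th17 cells. In WT it was 4.41, 4.31 and 4.5 in the naive samples, 4.38, 4.33 and 4.30 in Th0 and 4.18, 4.27 and 4.27 in Treg. It was 5.50, 5.95 and 5.50 in WT Th1, and 5.15, 5.69 and 6.43 in WT Th2. In WT Th17 the levels were 8.68, 7.73 and 6.63. All 9 of these WT Th1, Th2 and Th17 samples lay above the highest WT Th0 sample, and the WT Th17 samples were spread over more than 2 log2 units. Against WT Th0, the WT Th17 level was 10.2-fold higher (log2 difference 3.34 ± 0.37, SE, 3 samples a group, limma adjusted p = 2.53e-08). This SE rests on the spread shared by the 12 groups, while the SD was 1.03 in WT Th17 and 0.04 in WT Th0. The call passed in all 19 alternatives, with a limma adjusted p of at most 0.000516. Smaller rises were called in WT Th2 (1.42 ± 0.37, SE, limma adjusted p = 0.00321) and in WT Th1 (1.31 ± 0.37, SE, limma adjusted p = 0.02). The WT Th1 call was lost when any of the WT Th0 samples or WT Th1 sample 2 was left out, with limma adjusted p between 0.0532 and 0.101. The WT Treg difference was -0.10 ± 0.37 (SE), and that between WT Th0 and WT naive cells -0.07 ± 0.37 (SE).

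In KO cells Ly6g was 4.68, 4.25 and 4.64 in the naive samples, 4.48, 4.68 and 4.85 in Th0 and 4.71, 4.24 and 4.75 in Treg. It was 4.26, 4.91 and 5.12 in KO Th1, so the 3 KO Th1 samples lay below all 3 WT Th1 samples. In KO Th2 it reached 9.41, 10.55 and 10.71. All 3 lay above the highest WT Th2 sample, which was at 6.43. In KO Th17 it was 11.07, 11.10 and 9.90, again above each WT Th17 sample. The KO level was 22.1-fold higher in Th2 (log2 difference 4.47 ± 0.37, SE) and 8.04-fold higher in Th17 (3.01 ± 0.37, SE). In Th1 the KO level was lower, by a log2 difference of -0.89 ± 0.37 (SE), which was -0.63 when KO Th0 sample 1 and KO Th1 sample 1 were left out. Naive, Th0 and Treg cells differed by 0.12, 0.34 and 0.33, and Th0 by 0.43 without that Th0 sample. Over the 12 groups the order ran from KO Th17 (10.69 ± 0.69, SD) and KO Th2 (10.22 ± 0.71, SD), whose samples overlapped, to WT Th17 (7.68 ± 1.03, SD). WT Th2 (5.76 ± 0.64, SD) and WT Th1 (5.65 ± 0.26, SD) overlapped with each other, and the other 7 groups had means between 4.24 and 4.76.

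Other neutrophil genes mostly stayed at the bottom of the scale in the samples where Ly6g was high. Of 16 listed neutrophil genes, all on the array, 2 passed the filter, Cxcr2, a chemokine receptor, and Lcn2, an iron-scavenging secreted protein. S100a8 was between 3.28 and 3.75 and S100a9 between 3.55 and 4.34 over the 36 samples, and Mpo, Elane, Camp, Ngp and Csf3r were below 5.26 in all 36. Cxcr2 was between 6.58 and 7.99 in the KO Th2 and KO Th17 samples and at most 6.82 in the WT samples of these conditions. Lcn2 reached 7.34 in a KO sample of these conditions and at most 5.09 in the WT ones. The mean level of the 16 genes was between 4.45 and 4.53 in KO Th17 and between 4.27 and 4.33 in WT Th17. In Th2 the ranges were 4.28 to 4.4 in KO and 4.33 to 4.43 in WT, which overlap. Of the 9 listed genes of other myeloid cells on the array, 5 passed the filter. The 5 were Itgam, Adgre1, Fcgr3, Cd68 and Ccr2. Adgre1, which encodes F4/80, reached 10.32 in a KO Th2 or Th17 sample and 8.81 in a WT one. Lyz2, a lysozyme of macrophages and neutrophils, did not pass and stayed at or under 4.55 everywhere. The mean of the myeloid list was higher in KO without overlap in Th2, at 5.77 to 6.15 against 5.65 to 5.75, and overlapped in Th17, at 5.29 to 5.44 against 5.17 to 5.30. The mean of 8 listed genes of CD8 T and NK cells, of which 6 passed the filter, was also higher in KO without overlap. It was 5.67 to 5.88 against 5.47 to 5.56 in Th2 and 5.44 to 5.57 against 5.16 to 5.29 in Th17. The part of these genes in the Ly6g values was not tested.

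Ly6a2 marked the Th1 culture. It was 10.99, 10.32 and 10.90 in the 3 WT Th1 samples. In WT Th0 it was 5.08, 5.26 and 5.07, and the other WT groups had means between 4.86 and 5.35. The rise from WT Th0 to WT Th1 was 48.6-fold (log2 difference 5.60 ± 0.35, SE, 3 samples a group, limma adjusted p = 5.05e-12). WT Th2, Th17 and Treg differed from WT Th0 by 0.01, -0.25 and -0.27, with limma adjusted p between 0.576 and 0.988. The KO Th1 samples were at 7.49, 10.27 and 9.23, all below the lowest WT Th1 sample and far apart from each other. The KO level was 3.35-fold lower than WT in Th1 (log2 difference -1.74 ± 0.35, SE). The KO Th1 sample numbered 1 gave the lowest of these levels, and without it and its Th0 counterpart the difference was -0.99 ± 0.24 (SE), a ratio of 1.99. Without KO Th1 sample 2, the highest of the 3, it was -2.38. In Th0 the 3 KO samples, at 5.49, 5.46 and 5.88, lay above the WT samples, by 0.47 ± 0.35 (SE), or 0.53 without KO Th0 sample 1. Naive, Th2, Th17 and Treg samples of the genotypes overlapped, with differences between -0.15 and 0.14. The mean of the CD8 T and NK cell list was ordered like Ly6a2 over WT Th0, KO Th1 and WT Th1. It was 5.37 to 5.60 in WT Th0, 6.24 to 6.36 in WT Th1 and 5.77 to 6.0 in KO Th1. The likeness did not hold in every group. In KO Treg the list mean was 5.81 to 6.03, while Ly6a2 was between 4.94 and 5.13. In KO Th2 the list mean was 5.67 to 5.88, while Ly6a2 was between 4.83 and 5.16. In that list Klrb1c and Ncr1, which define NK cells, were at or under 4.93 in all 36 samples, and Cd8a reached 6.50. Cd8b1, Prf1 and Nkg7 were above 5.26 in all 36 samples and reached 8.84, 9.49 and 11.68. Gzma reached 10.93, in a KO Th2 or KO Th17 sample, and Klrk1 reached 6.72. The part of these genes in the Ly6a2 values was not tested. KO Th1 (9.0 ± 1.4, SD) followed WT Th1 (10.74 ± 0.36, SD) in the order of the 12 groups, and the remaining 10 means lay between 4.83 and 5.61 with neighbours that overlapped.

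The upstream sequences show how closely Ly6a2 and Ly6g are related to the Ly6c genes that lie near them. Of the 6 listed members, 2 have an entry in the RefSeq promoter table (build GRCm38.p6), Ly6a2 and Ly6g, and Ly6c1 and Ly6c2 were added as neighbours. The 250 bases before the most upstream start of each gene are printed 5′ to 3′ on the strand of the gene. They are Ly6a2 at chr15:75135129-75135378 on the minus strand, Ly6c2 at chr15:75111972-75112221 on the minus strand, Ly6c1 at chr15:75048838-75049087 on the minus strand and Ly6g at chr15:75155011-75155260 on the plus strand. Capitals mark matches to a ROR-type element (AGGTCA), to which nuclear receptors of that family bind. They also mark matches to an ETS-type element (GGAAGT). The last motif in capitals is of the TATA-box type (TATAAA).
Ly6a2: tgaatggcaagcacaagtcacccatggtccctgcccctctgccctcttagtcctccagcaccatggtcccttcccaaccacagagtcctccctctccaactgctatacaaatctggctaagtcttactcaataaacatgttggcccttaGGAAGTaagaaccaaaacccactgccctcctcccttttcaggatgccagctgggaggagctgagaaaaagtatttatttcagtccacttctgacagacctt
Ly6c2: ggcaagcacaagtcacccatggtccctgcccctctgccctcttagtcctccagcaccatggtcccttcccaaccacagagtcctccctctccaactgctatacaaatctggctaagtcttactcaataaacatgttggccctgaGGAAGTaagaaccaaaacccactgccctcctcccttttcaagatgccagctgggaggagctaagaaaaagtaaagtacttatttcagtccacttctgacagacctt
Ly6c1: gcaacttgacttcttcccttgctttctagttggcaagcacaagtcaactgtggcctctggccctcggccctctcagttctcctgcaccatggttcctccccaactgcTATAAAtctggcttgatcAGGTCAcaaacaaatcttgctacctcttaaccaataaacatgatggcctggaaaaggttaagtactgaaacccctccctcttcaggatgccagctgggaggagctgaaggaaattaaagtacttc
Ly6g: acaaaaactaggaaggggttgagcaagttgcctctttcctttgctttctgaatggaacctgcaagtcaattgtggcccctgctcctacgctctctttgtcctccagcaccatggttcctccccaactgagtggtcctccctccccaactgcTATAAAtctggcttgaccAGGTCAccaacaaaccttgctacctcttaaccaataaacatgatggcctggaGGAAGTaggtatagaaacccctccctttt

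In a pairwise alignment the Ly6a2 and Ly6c2 windows were identical at 241 of 245 aligned bases (98.4%), with 5 bases of each window unaligned. The Ly6g window was closest to that of Ly6c1, at 172 of 206 aligned bases (83.5%). Against Ly6a2 it was identical at 149 of 196 aligned bases (76.0%). AGGTCA was found at 1 place each in the Ly6g and Ly6c1 windows, and at none in the Ly6a2 and Ly6c2 windows. TATAAA had the same distribution, and GGAAGT occurred at 1 place each in Ly6a2, Ly6c2 and Ly6g. In the table, 14% of the 32851 windows hold AGGTCA on either strand, 12.4% hold TATAAA and 19.7% hold GGAAGT. A STAT-type motif, TTCNNNGAA, held by 7.0% of all windows, had no match in the 4 printed ones. The same was true of a T-box-type motif, GGTGTGA, held by 3.3% of windows. A GATA-type motif, AGATAA, held by 10.0%, also had no match in them. Nor did an interferon-response-element-type motif, held by 3.0%, in which a pair of GAAA runs is parted by 2 bases of any kind. Both strands were searched for each, the matches do not overlap one another, the letters were chosen after the sequences were seen, and a match is a description of the letters. Transcripts of such close relatives can also resemble each other, and hybridisation of one gene's RNA to the probe set of another was not tested.

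Ly6k, known from the testis, was higher in KO than in WT cells in every condition, with no overlap between the genotypes. In WT it was between 5.50 and 6.23 over the 18 samples. The KO levels were 6.96, 7.14 and 6.58 in naive cells, 6.86, 7.59 and 6.74 in Th0, and 6.45, 6.80 and 7.10 in Th1. They were 6.11, 6.64 and 6.50 in Th2, 7.59, 7.82 and 7.43 in Th17, and 7.01, 7.38 and 6.82 in Treg. Th17 had the highest KO mean and Th2 the lowest, and a KO Th0 sample at 7.59 lay within the range of KO Th17. KO exceeded WT by log2 differences of 0.82 in naive cells, 1.31 in Th0, 1.15 in Th1, 0.73 in Th2, 1.57 in Th17 and 1.21 in Treg, each ± 0.20 (SE). Without KO Th0 sample 1 and KO Th1 sample 1 the values were 1.42 in Th0 and 1.32 in Th1. The mean over the 6 conditions was 1.13 ± 0.08 (SE), a ratio of 2.19. No WT comparison of Ly6k passed the threshold, with the largest difference in stimulated against naive cells (-0.33 ± 0.20, SE, limma adjusted p = 0.164). The 6 KO group means, from 6.42 to 7.61, all lay above the 6 WT means, from 5.63 to 6.08. KO Th17 (7.61 ± 0.20, SD) headed the order, above the highest sample of KO Treg, the next group, and neighbours below it overlapped.

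A further probe set carries the symbol Ly6k alone and gave no such difference. It was below 5.26 in all 36 samples, between 4.19 and 4.90 in WT and between 4.25 and 4.86 in KO, and KO minus WT was between -0.28 and 0.13 over the 6 conditions. With the mean of both probe sets the average KO minus WT difference was 0.53. The gene-level statement on Ly6k therefore rests on 1 of 2 probe sets, and which parts of the transcript they read was not analysed here.

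Ly6d, the ThB antigen, was raised in KO naive and KO Th0 cells and close to WT in Th2. In WT it stayed between 5.33 and 6.09 over the 18 samples, and none of the 5 WT comparisons passed the threshold (limma adjusted p between 0.255 and 0.939). In KO naive cells it was 6.64, 7.43 and 7.40, against 5.72, 5.50 and 5.88 in WT. In KO Th0 it was 8.46, 8.46 and 7.02, against 5.53, 5.53 and 5.33 in WT. KO samples were also above WT in Th1, at 6.27, 6.41 and 6.86, and in Treg, at 6.27, 6.29 and 7.06. In Th17 they were at 5.99, 5.78 and 6.0, and in Th2 at 5.76, 5.69 and 5.74. The KO samples lay above all WT samples of their condition in each of the 6 conditions. In Th2 the lowest KO and the highest WT sample were both at 5.69 and differed only in the third decimal.

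KO minus WT for Ly6d was 2.51 ± 0.26 (SE) in Th0, a ratio of 5.71, and 1.46 ± 0.26 (SE) in naive cells, a ratio of 2.75. It was 0.90 in Th1, 0.69 in Treg, 0.43 in Th17 and 0.09 in Th2, each ± 0.26 (SE). With KO Th0 sample 1 and KO Th1 sample 1 left out it was 2.28 in Th0 and 1.02 in Th1. KO Th0 (7.98 ± 0.83, SD) and KO naive (7.16 ± 0.45, SD) headed the 12 groups and overlapped, followed by KO Treg (6.54 ± 0.45, SD) and KO Th1 (6.51 ± 0.31, SD). The other 8 means lay between 5.46 and 5.92. Of the 9 listed B-cell genes on the array, 3 passed the filter, Cd79b, part of the B-cell receptor, and the transcription factors Ebf1 and Pax5. Cd79b was between 4.55 and 6.26, Ebf1 between 4.20 and 9.27 and Pax5 between 4.73 and 5.47. Cd79a, Ms4a1 and Vpreb1 were below 5.26 in all 36 samples. The mean of the B-cell list was between 4.21 and 4.26 in KO Th0 and between 4.16 and 4.32 in WT Th0. Of the 6 listed epithelial genes on the array, 5 passed the filter. Their list had a mean between 5.11 and 5.21 in KO Th0 and between 5.12 and 5.30 in WT Th0. In naive cells and in Th1 both lists overlapped between the genotypes. The B-cell mean was higher in KO without overlap in Th2, at 4.34 to 4.39 against 4.24 to 4.33, and in Th17, at 4.73 to 4.78 against 4.61 to 4.68. In Treg the epithelial mean was higher in KO without overlap, at 5.62 to 5.79 against 5.42 to 5.58. In Th2 it was lower, at 5.49 to 5.59 against 5.62 to 5.72. The part of these genes in the Ly6d values was not tested.

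**Figure D2:**
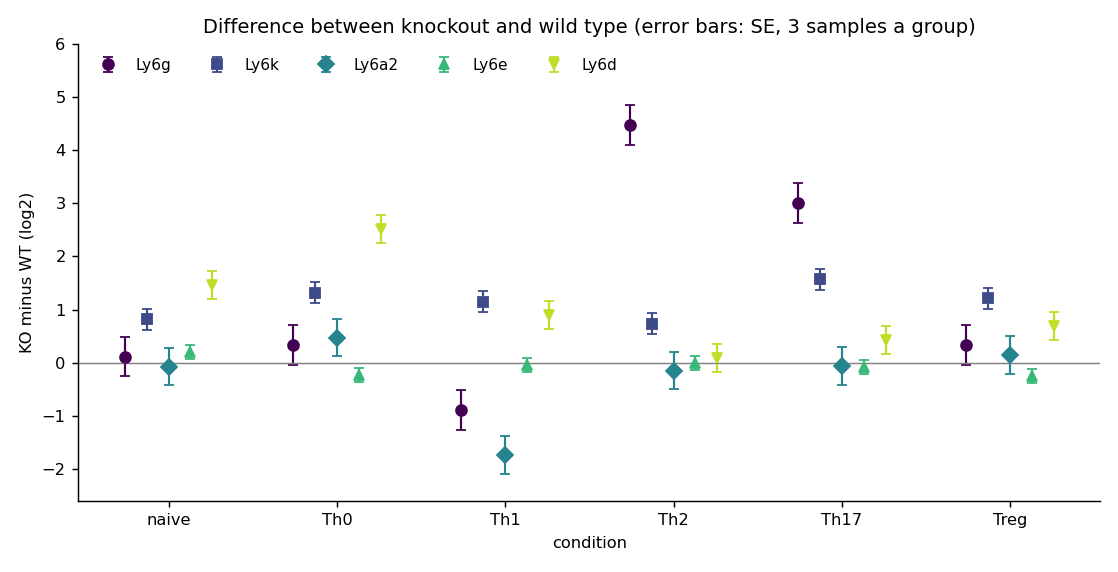
KO minus WT log2 difference (y axis) of the 5 Ly6 genes in each condition (x axis), with the standard error of the 12-group fit over 3 samples a group. Ly6g stands at 4.47 in Th2 and 3.01 in Th17, Ly6d at 2.51 in Th0, Ly6k between 0.73 and 1.57 throughout, and Ly6a2 at -1.74 in Th1.

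Ly6e, the interferon-inducible member, varied least. It was between 10.91 and 12.27 over the 36 samples, and KO minus WT lay between -0.26 and 0.21 in the 6 conditions, each with an SE of 0.13. In WT cells it fell from Th0, at 12.13, 11.99 and 11.99, to Th2, at 11.75, 11.42 and 11.29 (log2 difference -0.55 ± 0.13, SE, limma adjusted p = 0.00146). It also fell to WT Treg, at 11.54, 11.65 and 11.71 (-0.40 ± 0.13, SE, limma adjusted p = 0.0151). That call was lost without WT Th0 sample 1 or WT Treg sample 1, with an adjusted p of up to 0.0612. WT Th17, at 11.70, 11.76 and 11.74, was below the WT Th0 samples, by -0.30 ± 0.13 (SE), with a limma adjusted p of 0.07. WT Th1 differed from WT Th0 by 0.04 and WT Th0 from WT naive by 0.00, each ± 0.13 (SE). In naive cells the KO samples, at 12.27, 12.24 and 12.23, lay above the WT samples, at 12.04, 12.03 and 12.05. In Th0 the KO samples, at 11.86, 11.90 and 11.68, lay below them. KO minus WT was -0.22 in Th0 and -0.05 in Th1, and -0.25 and -0.12 without the first KO sample of each. The 12 means fell between 11.37 and 12.25, with KO naive the highest, and neighbours after it overlapped.

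Listed interferon-response genes were lower in WT Th2, Th17 and Treg, the cultures in which Ly6e was also lowest among the WT groups. Of 40 listed genes 34 were tested, and 31 were lower in WT Th2, 32 in WT Th17 and 32 in WT Treg than in WT Th0, with none higher. Their median differences were -1.47, -1.57 and -2.20, beside medians of -0.06, -0.04 and 0.00 over all tested genes. Of all tested genes 22.9%, 18.8% and 22.4% were lower there, and 17.2%, 20.3% and 19.2% higher. In KO against WT the listed genes were lower for 22 and higher for 1 in Th0, with a median of -1.04. Of all tested genes 19.6% were lower and 16.8% higher there. In Th1, 13 were lower and 2 higher, with a median of -0.29, beside 23.7% and 17%. Without KO Th0 sample 1 and KO Th1 sample 1, 17 were lower and 2 higher in Th0, with a median of -0.71, and 11 were lower and none higher in Th1, with a median of -0.22. In Th2, 4 of these genes were higher and 1 lower, in Th17 1 and 2, in Treg 2 and 0, and in naive cells none was called. Over all tested genes the shares higher and lower were 7.51% and 8.88% in Th2, 4.03% and 4.18% in Th17 and 1.71% and 2.51% in Treg. Usp18, which removes the ubiquitin-like protein ISG15 and restrains interferon signalling, was higher in KO Treg by 3.49 ± 0.26 (SE, limma adjusted p = 1.74e-10). In Th0 the largest KO difference of the list was a fall, of Oasl2 at -3.57 ± 0.49 (SE, limma adjusted p = 3.52e-06). That value has all samples in the fit, and the one without KO Th0 sample 1 is not given here.

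Among the WT comparisons, which share the WT Th0 samples, 2 of the 5 members were higher in Th1 than in Th0, against 5.43% of the 13082 tested genes, and none was lower, against 5.4%. In Th2, 1 was higher and 1 lower, against 17.2% and 22.9% of all tested genes. In Th17, 1 was higher and none lower, against 20.3% and 18.8%. In Treg, none was higher and 1 lower, against 19.2% and 22.4%. From naive to Th0 no member was called in either direction, while 31.2% of tested genes rose and 22.3% fell. The medians of the 5 members were 0.15 in Th1, 0.01 in Th2, 0.03 in Th17, -0.10 in Treg and -0.21 from naive to Th0. Over all tested genes the medians were between -0.06 and 0.04.

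**Figure D3:**
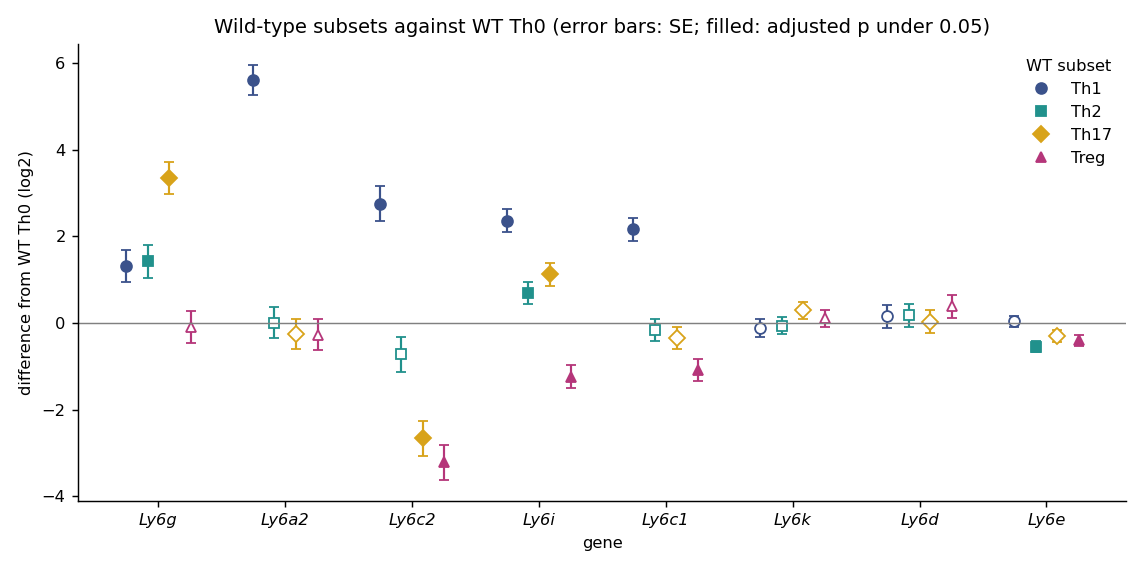
Log2 difference of WT Th1, Th2, Th17 and Treg from WT Th0 (y axis) for the 5 members and 3 neighbouring Ly6 genes (x axis), with SE; filled symbols passed an adjusted p of 0.05 and open ones did not. Ly6a2, Ly6c2, Ly6i and Ly6c1 are highest in Th1, from 2.16 to 5.60, and Ly6g in Th17, at 3.34.

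For KO against WT the same fit called 2 members higher in naive cells, Ly6k and Ly6d, and none lower, where 0.948% of tested genes were higher and 0.199% lower. In Th0 it called the same 2 higher, beside 16.8% of genes higher and 19.6% lower. In Th1 it called Ly6k and Ly6d higher and Ly6a2 lower, beside 17% and 23.7%. In Th2 and in Th17 it called Ly6g and Ly6k higher, beside 7.51% higher and 8.88% lower in Th2 and 4.03% and 4.18% in Th17. In Treg it called Ly6k higher, beside 1.71% and 2.51%. For the mean over the 6 conditions 3 members were higher, Ly6g, Ly6k and Ly6d, beside 18.9% higher and 27.5% lower. These counts describe the genes that were chosen on such differences, and nothing is read from them. Several calls were lost under alternatives. That of Ly6k in naive cells was lost in 8 of 19, with a term for sex, with only the groups compared, with the mean of its probe sets and without any 1 of 5 of the 6 samples (all but KO naive sample 3). That of Ly6k in Th2 was lost with the mean of its probe sets and without KO Th2 sample 2, and that of Ly6a2 in Th1 with only the groups compared.

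Other genes of the Ly6 and urokinase-receptor family were followed on a list of 44, of which 39 were on the array and 13 were tested. In WT Th1 3 of the 13 were higher than in WT Th0 and 1 was lower, beside 5.43% and 5.4% of all tested genes. The 3 were Ly6c2, Ly6i and Ly6c1, and the lower one was Plaur, the urokinase receptor. Ly6c2, a part of the Ly6C antigen, was 8.92, 9.77 and 9.39 in WT Th0 and 11.99, 12.01 and 12.33 in WT Th1, a rise of 2.75 ± 0.41 (SE, limma adjusted p = 1.49e-05). Ly6i rose by 2.36 ± 0.26 (SE, limma adjusted p = 1.56e-07) and Ly6c1, the other part of Ly6C, by 2.16 ± 0.26 (SE, limma adjusted p = 6e-07). The Plaur difference was -0.83 ± 0.25 (SE, limma adjusted p = 0.0312), a call that was lost with cyclic loess and when any 1 of the 6 samples was left out. All of these Ly6 genes and Ly6a2 thus rose in the same culture. Ly6c2 was lower than in WT Th0 in Th17 (-2.66 ± 0.41, SE, limma adjusted p = 4.35e-06) and in Treg (-3.22 ± 0.41, SE, limma adjusted p = 2.86e-07). In WT Th17 1 family gene was higher, Ly6i at 1.13, and 4 were lower, beside 20.3% and 18.8% of all tested genes. In WT Th2 1 was higher and 1 lower, beside 17.2% and 22.9% of all tested genes. They were Ly6i at 0.69 and Lynx1, a modulator of nicotinic receptors, at -0.40. The Ly6i call in Th2 was lost with no filter and without WT Th0 sample 1 or 3 or WT Th2 sample 2 or 3. The Lynx1 call was lost with cyclic loess and without WT Th2 sample 3. In WT Treg 2 were higher, Lypd8 at 1.44 and Ly6g5b at 1.32, and 5 lower, beside 19.2% and 22.4% of all tested genes. Lypd8 was at most 4.60 outside Treg cultures and so passed the filter only through Treg samples. Nothing is read from its call, which was also lost with only the groups compared (limma adjusted p = 0.0904). Without WT Treg sample 1 the Ly6g5b call was lost, at 0.78. Lypd8 in Treg was 2.16 without WT Treg sample 1 and 0.77 without WT Treg sample 3. From WT naive to Th0 2 rose and 5 fell, beside 31.2% and 22.3% of all tested genes. The largest fall was that of Lypd6b, at -2.93 ± 0.25 (SE, limma adjusted p = 1.27e-10).

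**Figure D4:**
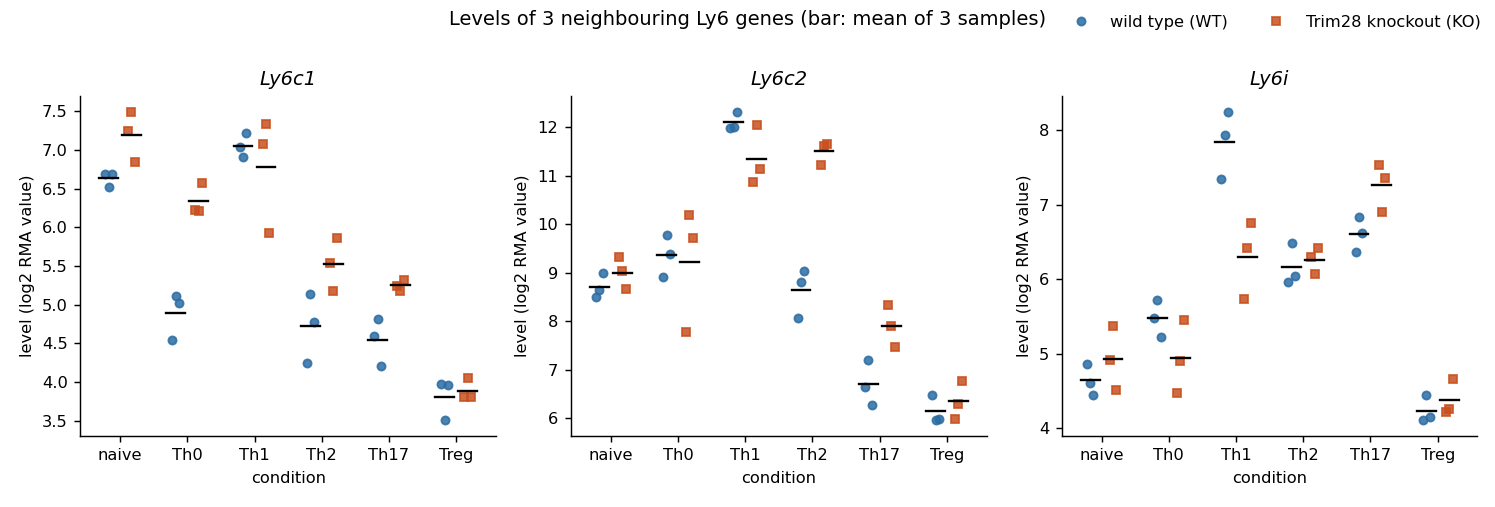
Log2 RMA level (y axis) of Ly6c1, Ly6c2 and Ly6i, neighbours of the members in the cluster, in each of the 36 samples by condition (x axis), with WT as blue circles, KO as orange squares and a bar at the mean of 3 samples. The KO Th2 samples of Ly6c2 stand between 11.22 and 11.67, above all WT Th2 samples, and the KO Th1 samples of Ly6i lie below all WT Th1 samples.

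These relatives were not among the members, and their KO differences were tested. Their list was drawn up with earlier results of these data known, so the p-values may be too small. In Th2, 2 of the 13 were higher in KO and none lower, beside 7.51% and 8.88% of all tested genes. Ly6c2 was 11.22, 11.63 and 11.67 in KO Th2 and 8.06, 8.82 and 9.04 in WT Th2, a 7.28-fold difference (2.86 ± 0.41, SE, limma adjusted p = 8.35e-06). Like Ly6g, it was thus higher in KO Th2 cells, while Ly6a2, which lies between the 2 genes, differed by -0.15. Ly6c1 was higher in KO Th2 by 0.81 ± 0.26 (SE, limma adjusted p = 0.0307). That call was lost with array weights, with only the groups compared, and without WT Th2 sample 1 or 3 or KO Th2 sample 1 or 3. In Th0, 4 were higher and none lower, beside 16.8% and 19.6% of all tested genes. Ly6c1 led them. It was 6.23, 6.21 and 6.57 in KO Th0 and 4.55, 5.11 and 5.02 in WT Th0 (1.45 ± 0.26, SE, limma adjusted p = 7.84e-05). The other 3 were Lypd6b at 0.84, Plaur at 0.76 and Lynx1 at 0.50, and all 3 were called with a limma adjusted p between 0.00361 and 0.0189. The Lypd6b call was lost without WT Th0 sample 2 and the Plaur call without WT Th0 sample 3. Without KO Th0 sample 1 none of these 3 passed. Without it and KO Th1 sample 1, 2 relatives were called, Ly6c1 at 1.5 and Lypd6b at 0.65, while Plaur was at 0.60 and Lynx1 at 0.36.

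In Th1, 2 relatives were higher in KO and 1 was lower, beside 17% and 23.7% of all tested genes. Ly6i was 5.73, 6.41 and 6.75 in KO Th1 and 7.34, 7.94 and 8.25 in WT Th1, without overlap (-1.54 ± 0.26, SE, limma adjusted p = 3.51e-05). Lypd6b was higher by 1.29 ± 0.25 (SE, limma adjusted p = 0.000162) and Lynx1 by 0.43 ± 0.13 (SE, limma adjusted p = 0.00979). The Lynx1 call was lost with quantile normalization again and without WT Th1 sample 2. Without KO Th0 sample 1 and KO Th1 sample 1 the 3 values were -1.26, 0.95 and 0.41, and all passed. The Ly6c2 difference in Th1, -0.76 ± 0.41 (SE), had a limma adjusted p of 0.14, and was -0.52 without those samples. None of the 13 was called in naive, Th17 or Treg cells. Of all tested genes 0.948%, 4.03% and 1.71% were higher there, and 0.199%, 4.18% and 2.51% lower. In Th17 Ly6c2 was higher in KO by 1.2 ± 0.41 (SE) with a limma adjusted p of 0.0672, and its 3 KO samples lay above the 3 WT samples. With those 2 samples left out of the fit this difference passed, with a smaller SE of 0.29 and a limma adjusted p of 0.00731. The family medians of KO minus WT were between -0.03 and 0.14 over the 6 conditions, beside medians between -0.03 and 0.00 over all tested genes. For the mean over the 6 conditions 5 of the 13 were higher and none lower, beside 18.9% and 27.5% of all tested genes. Ly6c2 led the 5 at 0.61 ± 0.17 (SE, limma adjusted p = 0.00325). Without those 2 samples 4 were higher, with Ly6c2 at 0.77.

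The size of the KO difference was also compared between conditions, by subtracting the difference in Th0 cells. The share of tested genes called for a change in the KO difference was 18.5% for Th0 against naive, 0.589% for Th1 against Th0, 10.2% for Th2, 15.6% for Th17 and 27% for Treg. A gene that was not called may still differ. Among the 13 relatives, 2 were called for Th0 against naive, 1 for Th1, 2 for Th2, 1 for Th17 and 2 for Treg. Ly6c2 had a KO difference in Th2 that exceeded the one in Th0 by 2.99 ± 0.57 (SE, limma adjusted p = 0.00119), or 2.27 ± 0.44 (SE, limma adjusted p = 0.00191) without KO Th0 sample 1 and KO Th1 sample 1. Without those samples 1, 1, 1, 0 and 1 relatives were called for the 5 subtractions. The shares above belong to the full fit, and without those samples 34 of all tested genes were called for Th1 against Th0. For the members the same subtraction gave 4.13 ± 0.53 (SE) for Ly6g in Th2 and 2.67 ± 0.53 (SE) in Th17, and 4.04 and 2.58 without those samples. Ly6d had a smaller KO difference in Th2, by -2.43 ± 0.37 (SE), than in Th0, and by -2.19 without them. The members' values are given without a test, since they were chosen on the same differences.

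Genes next to each other in the cluster on chromosome 15 had unlike KO differences. The stretch from 3 genes before the first member to 3 genes after the last holds 30 genes in the RefSeq gene table. Of these 16 are named on the array and 11 were tested. Ly6d and Ly6k lie near one end, with Ly6g6g between them on the array at 4.65 or less in all samples. Gml and Ly6m follow, with KO minus WT between -0.32 and 0.06 and between 0.00 and 0.18, and no call in any condition. Next in order come Ly6e, Ly6i, Ly6c1, Ly6c2, Ly6a2 and Ly6g, among which the Th2 difference was 0.00, 0.10, 0.81, 2.86, -0.15 and 4.47. Ly6a2 lies between Ly6c2 and Ly6g and had the smallest Th2 difference of these 3. Ly6g2, beyond Ly6g, was at 3.88 or less in all 36 samples.

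**Figure D5:**
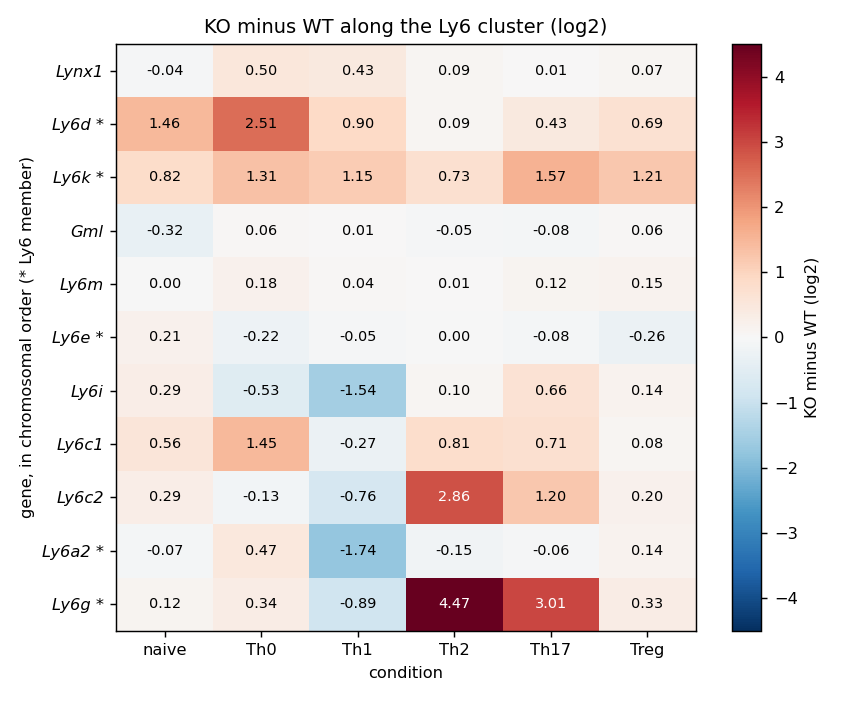
KO minus WT log2 difference (colour and number) in the 6 conditions (x axis) for the 11 tested genes of the Ly6 cluster, in chromosomal order from top to bottom (y axis), with members marked by an asterisk. High values in Th2 and Th17 stand at Ly6g, with Ly6c2 next in Th2 at 2.86, and the low values in Th1 stand at Ly6a2 and Ly6i.

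The members did not share a single pattern over the 12 group means. Pearson's r between pairs of members ran from -0.42 for Ly6g with Ly6e to 0.64 for Ly6k with Ly6d, as a description over 12 means of the same arrays. By the same measure, the genes most like Ly6g were Tspan2 (r = 0.98 over the 12 means and 0.92 over the 36 samples), Meis2 (0.98 and 0.92) and Gm5122 (0.96 and 0.94). Tspan2 encodes a tetraspanin and Meis2 a homeodomain transcription factor. For Ly6a2 they were Cldnd2 (0.99 and 0.89), Ifng, the Th1 cytokine interferon gamma (0.99 and 0.94), and Samd3 (0.98 and 0.97). Ly6d was most like Cracd (0.94 and 0.84), Snai3 (0.90 and 0.85) and Cdiptos (0.90 and 0.68). For Ly6e they were 4930507D05Rik (0.98 and 0.87), Znfx1 (0.93 and 0.84) and Tmco4 (0.92 and 0.84). Ly6k had the weakest likenesses, with Mir3110 (0.88 and 0.52), Pgpep1l (0.88 and 0.82) and Clpx (0.88 and 0.83).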

How the data were processed

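The data were 36 arrays of mouse CD4 T cells. Per the labels' protocols, labelled cDNA made from column-purified, DNase-treated RNA was run on an Affymetrix GeneTitan. The authors made log2 expression values by RMA with oligo in R 3.1.0, per the submitters' processing notes. The versions of RMA and oligo and the build are not given in the sources used here. The deposited log2 values (41345 probe sets, range 2.05 to 13.5) were used unscaled. Members and gene lists were chosen with earlier results of these data known.

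Probe sets with exactly 1 symbol were used, 23521 of them, and a gene took its probe set with the highest mean, which gave 22180 genes. The 13082 genes above the median of 5.26 in 3 or more samples entered limma 3.58.1 (R 4.3.3, with data.table at version 1.17.8). A mean for each of 12 groups was fitted to all 36 samples, with Benjamini-Hochberg adjustment per comparison and a threshold of 0.05. The fit was tested on simulated data for the Th17 comparison of KO with WT, where it recovered 53.7% of 67 genes changed by 0.5 (log2), 89.6% of 67 changed by 1 and 100% of 66 changed by 2, with 9 false calls among 12882 unchanged genes. In the simulation the samples were drawn independently, with 1 spread per gene in all 12 groups. In the data the spread of a gene differed between groups, for Ly6a2 from 0.11 to 1.4 (SD). These rates may therefore not hold for the data. Sequences were handled with Biopython 1.88 in Python 3.11.15.

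The text names the members, at most 4 called relatives per comparison with the largest differences, at most 4 such interferon-response genes, the 3 genes most like each member and the genes of the cluster. Groups share replicate numbers, and deviations of same-numbered samples correlated above 0.1 for all 3 numbers only in WT Th1 against Th0 (0.39, 0.33 and 0.23) and WT Th2 against Th0 (0.25, 0.12 and 0.11). Alternatives were other filters, normalizations, priors, weights, probe set means, blocks, a sex term and samples left out.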

Additional observations from a re-analysis of the deposited data

Results flagged for a closer look

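The following differences of the KO effect between conditions passed the threshold in the fit over all 13082 genes (limma, adjusted p under 0.05). For the members they are descriptions, because the members were chosen on differences of these samples. For Ly6g the KO effect in Th2 exceeded that in Th0 by 4.13 ± 0.53 (SE), and that in Th17 by 2.67 ± 0.53 (SE), or by 4.04 and 2.58 with KO Th0 sample 1 and KO Th1 sample 1 left out. For Ly6a2 the effect in Th1 was lower than in Th0, by -2.22 ± 0.50 (SE), and -1.53 with those 2 samples left out, where the threshold was missed. For Ly6d the effect in Th0 exceeded the naive one by 1.05 ± 0.37 (SE), and this missed the threshold in 16 of 25 alternatives. Compared with Th0 it was lower in Th1 (-1.62), Th2 (-2.43), Th17 (-2.09) and Treg (-1.83), each ± 0.37 (SE), and -1.25, -2.19, -1.85 and -1.59 without the 2 samples, where Th1 missed the threshold. The Th1 difference missed it in 12 of 25 alternatives, and that of Ly6a2 in 8 of 25.

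Among the relatives, the Ly6c1 effect was lower in Th1 than in Th0 (-1.72 ± 0.37, SE, limma adjusted p = 0.0189) and lower in Treg (-1.37 ± 0.37, SE, limma adjusted p = 0.00654). That of Ly6c2 was higher in Th2 than in Th0 (2.99 ± 0.57, SE, limma adjusted p = 0.00119). Ly6i had a higher effect in Th17 than in Th0 (1.19 ± 0.37, SE, limma adjusted p = 0.0278). For Lynx1 the effect in Th0 exceeded the naive one by 0.54 ± 0.19 (SE, limma adjusted p = 0.0438), and for Lypd6b by 1.19 ± 0.35 (SE, limma adjusted p = 0.0187). The Lypd6b effect was lower than in Th0 both in Th2 (-1.13 ± 0.35, SE, limma adjusted p = 0.0387) and in Treg (-0.96 ± 0.35, SE, limma adjusted p = 0.0433). Several of these calls were lost under alternatives. That of Lynx1 was lost in 18 of 25, including other normalizations, no filter, a term for sex and the 2 samples left out (0.40, limma adjusted p = 0.173). That of Lypd6b was lost in 14 of 25 in Treg and in 12 of 25 in Th2, in both with no filter and with those samples left out (-0.77 and -0.94, limma adjusted p = 0.0785 and 0.0668), and in 4 of 25 in Th0 against naive. The Ly6i call was lost in 6 of 25, including with those samples left out (0.96, limma adjusted p = 0.068) and without KO Th0 sample 1 alone. The Ly6c1 call in Th1 was lost in 4 of 25, and those of Ly6c1 in Treg and Ly6c2 in Th2 passed in all 25. The value of Ly6c2 was 2.27 without the 2 samples. The Th0 samples of both genotypes enter most of these values, so they are not independent of one another.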

How the results depend on the processing

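Alternatives changed no sign of a called difference. For the members the KO effects are again a description. For Ly6d, the KO effect in Th0 minus naive missed the threshold with no filter (1.05), quantile normalization again (0.97), median centring (1.0) and cyclic loess (0.95). The same held with a sex term (1.0), only the groups compared (1.05), the replicate block (1.05) and without KO Th0 1 and KO Th1 1 together (0.82). Over the samples left out in turn this effect was 0.80 to 1.53. The KO effect in Th1 minus Th0 missed it with only the groups compared for Ly6a2 (-2.22) and Ly6d (-1.62), and without those samples (-1.53 and -1.25). Left out in turn, samples gave -2.85 to -1.46 and -2.10 to -1.38. Ly6g in WT Th1 against Th0 was 1.16 to 1.39. With the mean of the probe sets Ly6k was 0.47 in naive cells and 0.39 in Th2, both without a call, 0.53 in Th0, 0.44 in Th1, 0.76 in Th17, 0.58 in Treg and 0.53 on average. The replicate block also brought Ly6e in WT Th17 against Th0 past the threshold (-0.30, limma adjusted p = 0.0433), as did array weights and only the groups compared, and it changed no other call of a named gene of the family.

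Genes called rose with array weights to 2830 in WT Th1 against Th0, to 3368, 2807 and 2834 in KO against WT in Th2, Th17 and Treg, and to 164, 2904, 3491 and 5326 for the KO effect in Th1, Th2, Th17 and Treg minus Th0. With only the groups compared, counts fell to 90, 1186 and 215 in KO against WT in naive, Th2 and Treg cells, and to 19 and 848 for the KO effect in Th1 and Th2 minus Th0. Without KO Th0 1 and KO Th1 1 together, 34 were called for Th1 minus Th0. Left out in turn, samples gave 1513 to 2509 genes for the KO effect in Th0 minus naive, 37 to 96 for Th1, 727 to 1669 for Th2 and 1277 to 2385 for Th17 minus Th0. They gave 622 to 1072 in KO against WT in Th17, 341 to 945 in Treg and 106 to 236 in naive cells. The cause was not tested.

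Median centring moved the median of all genes from 0.04 to 0.16 in WT Th0 against naive. The share of calls that were higher moved with it from 58.3% to 70.5% there, from 46.1% to 35.6%, 41.8% to 29.6% and 45.8% to 33.7% in KO against WT in Th0, Th1 and Th2, from 40.7% to 27.3% for the mean of 6 and from 43.6% to 33.3% for the KO effect in Th0 minus naive. Cyclic loess moved it from 50.2% to 64.9% in WT Th1, from 42.8% to 53.1% in WT Th2, from 40.6% to 50.7% in KO against WT in Treg, and from 47.4% to 62% and 48.5% to 61% for the KO effect in Th17 and Treg minus Th0.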
